A study of Mus musculus with 4 samples.

Results

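The exons described here are the cassette exons of mouse brain mRNAs that are at least 28 nt and less than 300 nt long and whose length is not a multiple of 3. A cassette exon is an exon that is either included in the mRNA between its neighbors or skipped. Because a codon has 3 bases, the use of such an exon changes the reading frame of everything that follows when it lies within the coding sequence. The members were chosen from exon trios, each a middle exon with the neighbors on both sides, that the database behind the measurements labels as cassette exons. Where several trios had the same middle exon, the one with most junction reads in total was kept, and at least 20 junction reads were required in both libraries of a stage. Of 9319 cassette exons, 4386 had such a length, and 3354 of these, in 2617 named genes, passed the read minimum at 1 stage at least. These 3354 exons are the members, out of 7214 cassette exons of any length that passed. 2979 were measured at both stages, 137 at E18 only and 238 at P1 only. Exons that did not pass are not described.

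A shifted reading frame usually runs into a stop codon within a short distance. An mRNA whose stop codon lies well upstream of its last exon junction is commonly degraded, a process called nonsense-mediated decay (NMD), in which protein complexes left at exon junctions mark the stop codon as premature. Cells use such exons both as switches that lower the output of a gene and, near the 3′ end of the coding sequence, as a way to give a protein another C-terminus. The polypyrimidine tract binding proteins PTBP1 and PTBP2 bind CU-rich RNA and mostly repress exons, and their own genes contain a frame-shifting exon of this kind.

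The study compared splicing in mouse brain with and without PTBP2, the form of the protein found in developing neurons. Each of the 4 groups has 1 library of 100-nt paired reads from mice whose strain is given as a mixed C56Bl/6:129S2 background. At E18, whole brains of PTBP2 Nestin-KO embryos (NesKO) were compared with wild-type brains (WT), with 2 brains in each library, and these libraries were not strand specific. At P1, the cortex of a PTBP2 Emx-KO animal (EmxKO) was compared with a wild-type cortex, with 1 animal in each library, and these libraries were strand specific. In the NesKO, Cre recombinase is driven by the nestin promoter, so that exon 4 of *Ptbp2* is lost from progenitors of the nervous system and from the neurons and glia derived from them, while blood, vessel and microglial cells keep the gene. In the EmxKO, Cre from the Emx1 gene acts in the lineage of cortical projection neurons, and interneurons and non-neural cells of the cortex keep the gene. Stage, tissue, Cre line and library protocol changed together, so that their effects cannot be told apart.

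Exon 4 of *Ptbp2* (chr3:119455862-119456034 in mm9) checks the labels and is not a member, since its trios are labelled as constitutive in part. Its skipping, from junction reads, was 100% in the NesKO, 0.225% in the E18 WT and 82.6% in the EmxKO. It was 31.5% in the P1 library labelled WT, where 604 junction reads skipped the exon, and this goes against its label. It is therefore called the library labelled WT, and every difference at P1 is a difference between a library with 82.6% and a library with 31.5% skipping of this exon.

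Distinct exon junctions held 48367448 reads in the NesKO, 50188724 in the E18 WT, 83110007 in the EmxKO and 83394001 in the library labelled WT. The members had medians of 178, 199, 306 and 338 junction reads in these libraries, and 3 reads of the total, the smallest share that such a median can show, were 1.69%, 1.51%, 0.980% and 0.888%. Markers of neurons were present in all 4 libraries at 2074 to 3009 RPM, the usual scaling of reads to the library's total, here over distinct junctions. Hindbrain and spinal cord markers were at 1.28 and 3.13 RPM in the NesKO and WT brain and at 0 in both cortex libraries. Summed microglial markers (4 of 5 with junctions) were at 105 RPM in the NesKO against 69.6 in the WT and at 56.9 in the EmxKO against 36.8, and red blood cell markers (3 of 4) at 2830 against 2168 and 315 against 329. Oligodendrocyte markers (3 of 4) were at 60.7 against 89.9 RPM at E18 and at 89.2 against 75.9 at P1, and astrocyte markers (4 of 4) at 294 against 372 and 277 against 254. In bulk tissue, more cells of a type and more RNA per cell cannot be told apart, and the part of these differences in the exon values was not tested.

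Inclusion is given as the PSI, the percentage of transcripts that include the exon, which is the ratio that SpliceTrap estimated after its own correction. An exon is said to differ when the PSI of the knockout and of the library compared were at least 10 points apart. It is said to be called when, in addition, the junction reads of the 2 libraries differed by Fisher's exact test (two-sided) at a p under 0.05 after Benjamini-Hochberg adjustment over all cassette exons of the stage. An exact adjusted p is the p of this test. It compares libraries and not genotypes, because no group has a replicate. PSI computed from junction reads alone is given with 95% Wilson intervals, which cover counting error only.

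Each exon was placed in the annotated transcripts of GENCODE by the lengths of the exon and its introns, and the reading frame was followed with and without the exon. An early stop codon is a stop codon more than 50 nt before the last exon junction. For 1184 members (35.3%), skipping gave an early stop codon, so that the transcript with the exon was the annotated open frame. For 596 (17.8%), inclusion gave it. In 27 (0.805%) the outcome depended on the transcript. 519 (15.5%) lay in coding sequence without an early stop codon either way, 193 (5.75%) held the annotated start or stop codon, 450 (13.4%) lay in the 5′ UTR and 6 (0.179%) in the 3′ UTR. 158 (4.71%) were matched to transcripts without a complete coding sequence only, and 221 (6.59%) were not matched. The class is a prediction from sequence, and decay itself was not measured. An early stop codon in any matched transcript sufficed, so another matched transcript can have the open frame in the same form. Where inclusion gave the early stop codon, 455 of the 596 stop codons (76.3%) lay inside the exon, and a median of 28.7% of the codons had been read by then. Where skipping gave it, the median was 28.8% and the stop lay a median of 711 nt before the last junction.

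The bases around the early stop codon show how it arises in 8 of the exons described below. Each line has 30 bases of the spliced transcript, 5′ to 3′, in the form that carries the stop codon, which is in capitals. The bases are from the GENCODE transcripts. In the 4 lines that come first the stop is read in the included exon itself, and in the other 4 it is read after the junction that skipping makes.
*Sphkap*, inclusion of 79 nt, chr1:83381469-83381547: ccatgtgggtagtTGAaccaaactctgcta
*Ptch1*, inclusion of 127 nt, chr13:63638790-63638916: ctccctccagtacTGAtggttcatcaaggc
*Gtpbp10*, inclusion of 76 nt, chr5:5554824-5554899: ggtttggtggtttTAAagagaacagtcctc
*Spint2*, inclusion of 73 nt, chr7:30045076-30045148: cctcttttatgctTAAgggactctgctgca
*Clk1*, skipping of 91 nt, chr1:58476965-58477055: attgttgatacttTAGgtgaaggtgctttc
*Clk4*, skipping of 91 nt, chr11:51086580-51086670: atcgtggacacttTAGgtgaaggagccttt
*Prkaa1*, skipping of 94 nt, chr15:5114712-5114805: gtccacagagattTGAaacctgagaacgtc
*Trpm4*, skipping of 175 nt, chr7:52583091-52583265: cgtcgcgggctggTGAgagccgcccagagc
The coordinates are those of the cassette exon in mm9. The stop in *Ptch1* began at base 4 of the exon and that in *Sphkap* at base 14, after only 15 of the 1658 codons of *Sphkap* had been read. In *Clk1* and *Clk4*, paralogs that encode kinases of splicing factors, skipping of an exon of the same length led to TAG at base 19 after that junction.

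The classes differed widely in how often the exon was used. Members whose skipping gave an early stop codon had a median PSI of 98.0% in the E18 WT, 98.2% in the NesKO, 96.7% in the P1 library labelled WT and 97.2% in the EmxKO. Members whose inclusion gave it had medians of 5.0%, 5.40%, 4.80% and 5.50% in the same order. In each case the form with the open reading frame was thus the common form in polyA+ RNA. The form with the early stop codon still made up 10% or more of the transcripts of 210 of 539 inclusion-stop exons (39.0%) and of 292 of 1124 skipping-stop exons (26%) in the E18 WT, and 50% or more for 81 (15%) and 46 (4.09%). The 5′ UTR exons were more often skipped than included, with medians of 24.1% in the E18 WT and 23.4% in the library labelled WT and with quartiles of 5.0% and 74.8% at E18. Coding exons without an early stop codon had medians of 89.6% and 87.1%, and exons with the start or stop codon 93.0% and 90.9%.

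**Figure D1:**
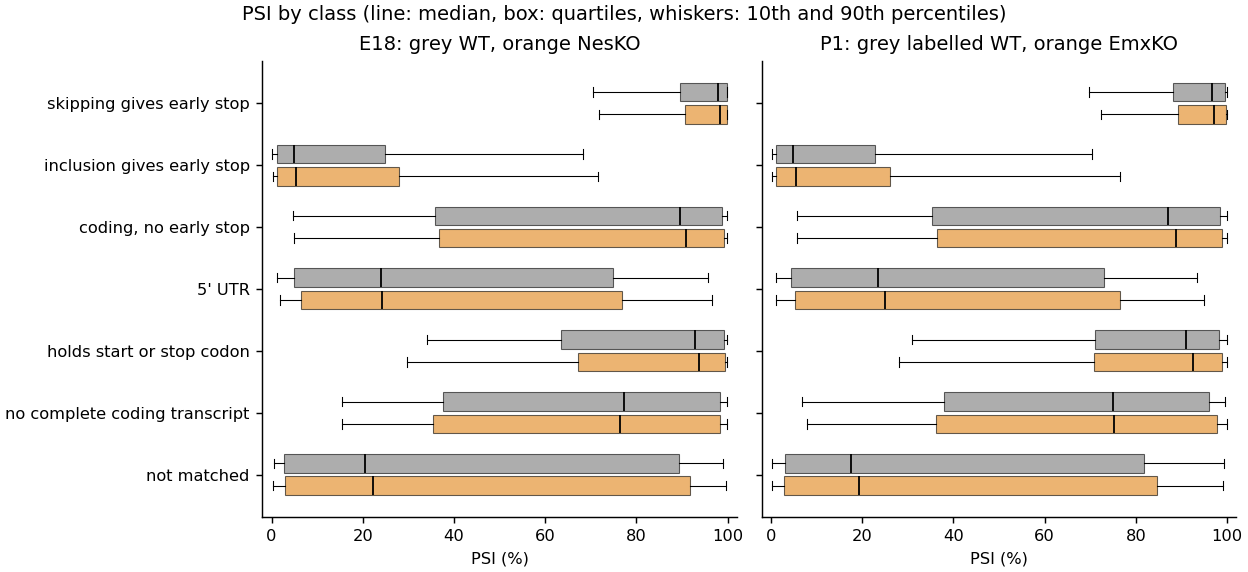
PSI in percent (x axis) of the frame-shifting exons in the larger classes of the annotation (y axis), at E18 on the left (grey WT, orange NesKO) and at P1 on the right (grey library labelled WT, orange EmxKO). Lines are medians over exons, boxes quartiles and whiskers the 10th and 90th percentiles. The class in which skipping gives an early stop codon sits near 98% and the class in which inclusion gives it near 5% in all 4 libraries.

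Over all members the median PSI was 85.4% in the NesKO and 84.5% in the WT, and the median size of the difference was 1.30 points. In the WT, 1394 of 3116 exons (44.7%) were above 90% and 660 (21.2%) under 10%. At E18, 300 exons (9.63%) differed by 10 points or more, beside 10.9% of all cassette exons. Of these, 176 were higher in the NesKO (5.65%, beside 6.98%) and 124 lower (3.98%, beside 3.94%). The reads called 61 exons (1.96%, beside 2.77%), 44 higher (1.41%, beside 2.09%) and 17 lower (0.546%, beside 0.682%). At P1, 245 of 3217 exons differed (7.62%, beside 9.42%), 165 of them higher in the EmxKO (5.13%, beside 6.83%) and 80 lower (2.49%, beside 2.59%). Here 75 were called (2.33%, beside 3.60%), 57 higher (1.77%, beside 2.91%) and 18 lower (0.560%, beside 0.692%). Among the exons that differed, 58.7% were higher in the knockout at E18 (95% Wilson interval, 53.0 to 64.1%) and 67.3% at P1 (61.2 to 72.9%). Over all cassette exons that differed, 63.9% were higher at E18 and 72.5% at P1, and both shares lie inside these intervals. Intervals of such shares count each exon as a separate case, although 241 members overlap another member. They do not cover differences between animals.

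Frame-preserving cassette exons of the same lengths, set beside them, differed more often, with no test of this contrast. Of 3019 at E18, 355 differed (11.8%) and 99 were called (3.28%). Of 3094 at P1, 318 differed (10.3%) and 142 were called (4.59%). The median WT PSI of those exons at E18 was 74.9%.

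Near the read minimum, the shares differed little on either side of it, but both were above that of all members. Of 106 frame-shifting exons with 20 to 24 reads in the shallower E18 library, 22 (20.8%) were 10 points or more apart. Of 128 with 15 to 19 reads, which did not pass at E18, it was 28 (21.9%). Over all members at E18 the share was 9.63%, so exons with few reads passed 10 points more often. The shortest members, 4 exons of 28 nt at E18, had a median WT PSI of 30.8%, and the 7 exons of 26 nt just below the limit had 72.1%. The 3 members closest to the upper limit had 77.0%, and the 1 exon just above it 6.90%.

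A cassette exon is joined to both neighbors, and its 2 inclusion junctions should then hold similar reads. In 35 of the 61 exons called at E18 and in 21 of the 75 at P1, these junctions differed by more than 3 times in a library compared. Such exons are called uneven here. They include exons with hardly any read on 1 of the inclusion junctions. Over all cassette exons, 90 of the 187 called at E18 and 90 of the 250 at P1 were uneven. Among frame-preserving exons of the same lengths it was 32 of 99 and 42 of 142. Even members alone gave 17 called higher and 9 lower at E18, and 39 and 15 at P1. For all cassette exons these counts were 71 and 26 at E18, and 127 and 33 at P1. At E18, 1338 of the 3116 members were uneven, called or not, beside 2950 of 6748 cassette exons.

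**Figure D2:**
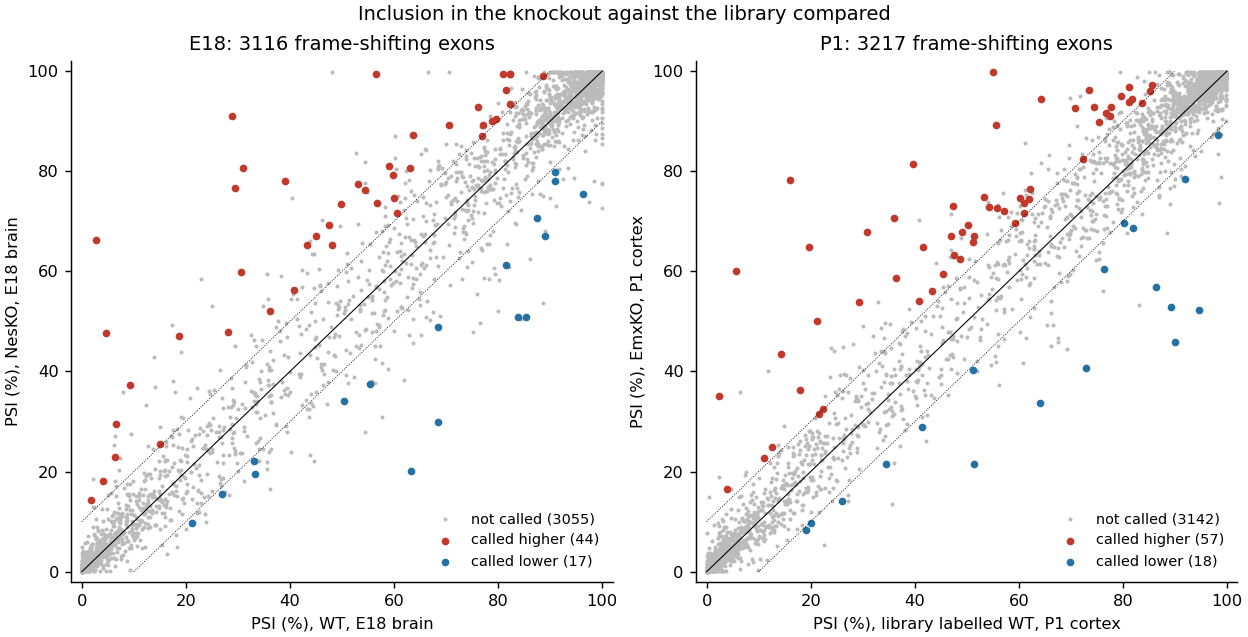
PSI in percent of each frame-shifting exon in the knockout (y axis) against the library compared (x axis), at E18 (NesKO against WT) and at P1 (EmxKO against the library labelled WT). Red points are exons called higher in the knockout (44 and 57), blue points exons called lower (17 and 18), grey points all others, and dotted lines mark 10 points. Most exons lie on the diagonal near 0 or 100%.

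Of the 2979 exons measured at both stages, 17 were called higher in both knockouts (0.571%, beside 1.07% of all cassette exons) and 4 lower in both (0.134%, beside 0.232%). 10 of the 17 and 3 of the 4 were even in all 4 libraries. The NesKO and the EmxKO were compared with different libraries, and so the stages share no control. Of the 42 exons called higher at E18 that were also measured at P1, 39 were higher at P1 as well, and of the 17 called lower at E18, 14 were lower. The same count was not made over all cassette exons, so it marks no trait of the members.

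By the smaller of its 2 changes, the gain in *Gpr85*, an orphan receptor of the brain, was the largest of the 17. Its 124-nt exon in the 5′ UTR (chr6:13787999-13788122) was included at 91.0% in the NesKO, 28.9% in the WT, 78.2% in the EmxKO and 16.0% in the library labelled WT. Junction-read PSI was 91.6% (88.4 to 94.0%) against 30.9% (26.1 to 36.1%) at E18 and 83.5% (80.6 to 86.0%) against 19% (16.6 to 21.7%) at P1, with exact adjusted p of 1.3e-65 and 2.1e-155. The 2 inclusion junctions held 154 and 46 reads in the E18 WT, so the exon was uneven at E18 and even at P1. Both knockouts were far above both other libraries. *Ccdc91*, which encodes an adaptor of the Golgi, had a 32-nt exon at 66.2% against 2.8% and 60.0% against 5.7%, but 1 of its inclusion junctions had 0 reads in every library, and the annotation did not match it.

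Among coding exons, the 89-nt exon of *Magi1*, a scaffold protein of cell junctions and synapses, was at 80.6% against 31.0% at E18 and 81.5% against 39.6% at P1 (exact adjusted p = 2.5e-12 and 1.0e-07). The 85-nt exon of *Pitpnb*, a lipid transfer protein, was at 59.8% against 30.5% and 50.1% against 21.3% (exact adjusted p = 5.5e-17 and 2.9e-32). The Wald test between the stages did not pass for either exon. The exon of *Sphkap*, an anchor of protein kinase A, was at 78.0% against 39.1% and 89.2% against 55.7%, and that of *Ptch1*, the receptor of Sonic hedgehog, at 37.2% against 9.2% and 43.4% against 14.2%. Both are exons whose inclusion gives an early stop codon, shown above. In *Ptch1* the junctions were uneven at E18, with 2 and 14 inclusion reads in the WT.

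The exons called lower in both knockouts were those of *Faxc*, *Tex264*, *Gtf2a2* and *Zmynd8*. The 197-nt exon of *Faxc* was at 30% in the NesKO, 68.4% in the WT, 40.6% in the EmxKO and 72.9% in the library labelled WT (exact adjusted p = 4.3e-14 and 1.9e-28). The 296-nt exon of *Tex264*, a receptor for the autophagy of endoplasmic reticulum, holds the annotated start or stop codon and was at 50.9% against 83.9% and 56.8% against 86.3%. The 127-nt exon of *Gtf2a2*, a subunit of general transcription factor IIA, was at 67.1% against 89.1% and 78.4% against 92.0%, and its skipping shortens the open frame from 109 to 68 codons. The 80-nt exon of *Zmynd8* was uneven, with at most 7 reads on 1 of its inclusion junctions in any library.

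**Figure D3:**
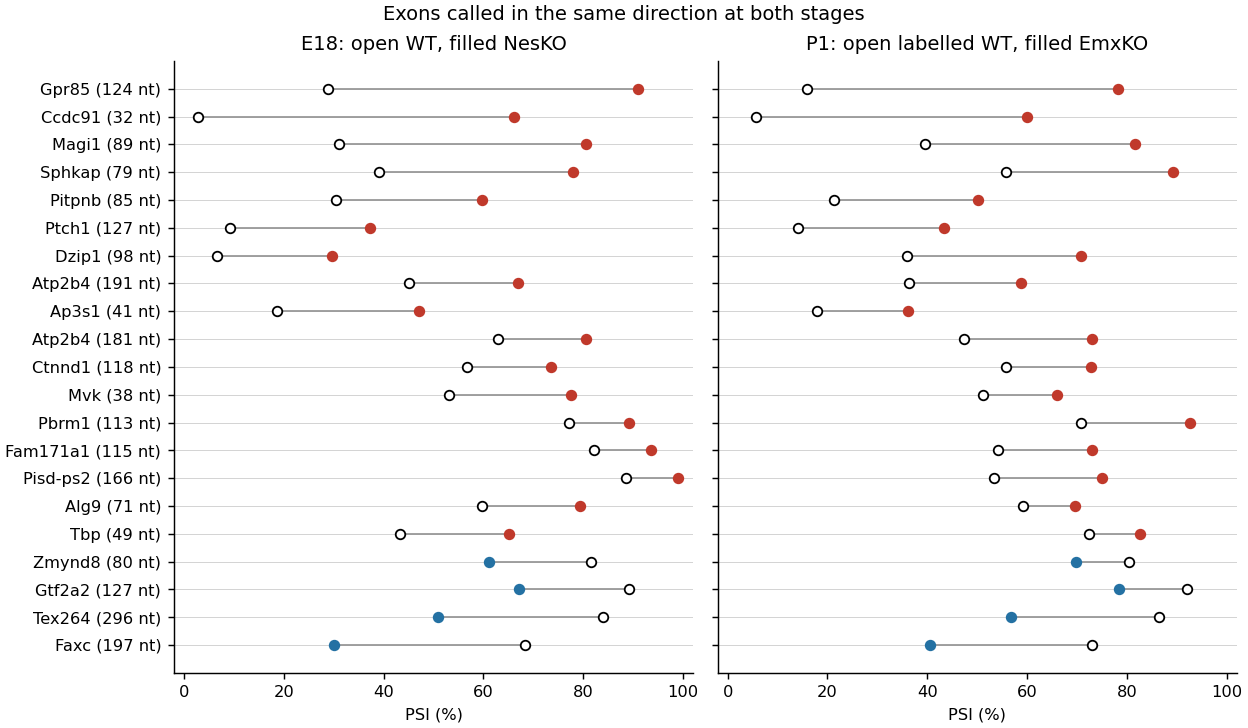
PSI in percent (x axis) of all 21 exons called in the same direction at both stages, at E18 (open WT, filled NesKO) and at P1 (open library labelled WT, filled EmxKO), each named by gene and length in nt (y axis). Red marks a higher and blue a lower PSI in the knockout, and a line joins the 2 libraries of an exon. The 2 rows of *Atp2b4* are overlapping exons that share an end. Among the exons higher in the knockout, *Ccdc91* has the widest gap at E18 and *Gpr85* at P1, and among those lower, *Faxc* at both stages.

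Where inclusion gives an early stop codon, 46 of 539 exons differed at E18, 32 of them higher in the NesKO (69.6%; 95% Wilson interval, 55.2 to 80.9%) and 14 lower. At P1, 40 of 573 differed, 34 higher in the EmxKO (85.0%; 70.9 to 92.9%) and 6 lower. Over all cassette exons that differed, 63.9% were higher at E18 and 72.5% at P1, and both shares lie inside these intervals. Frame-preserving exons of this class were higher in 17 of 28 at E18 (60.7%) and 16 of 18 at P1 (88.9%). The reads called 5 higher and 2 lower at E18 (1.30%, beside 2.77% of all cassette exons), and 9 higher and 0 lower at P1 (1.57%, beside 3.60%). Even exons were 3 of the 5 and 5 of the 9. The 76-nt exon of *Gtpbp10*, a GTP-binding protein that acts on mitochondrial ribosomes, was at 49.3% in the NesKO, 17.3% in the WT, 64.9% in the EmxKO and 19.7% in the library labelled WT, and was called at P1 (exact adjusted p = 0.0059). It rests on few reads, with 9, 9 and 4 on the junctions in the EmxKO. The 73-nt exon of *Spint2*, an inhibitor of serine proteases, was called at E18, at 73.5% against 49.8% (exact adjusted p = 0.0066), and had 76.2% and 61.2% at P1. In *Wiz*, a zinc-finger protein that acts with histone methyltransferases, a 73-nt exon was called lower at E18, at 34.1% against 50.4%, where it was uneven, and had 35.0% and 28.7% at P1. The 62-nt exon of *Adam22*, a receptor at synapses, was called at P1 at 35.1% against 2.3%, but 1 junction had 0 reads in each library.

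*Gria2*, which encodes a subunit of AMPA receptors, is in this class by its annotation. Its 115-nt exon (chr3:80494326-80494440) was at 71.6% in the NesKO and 60.5% in the WT (exact adjusted p = 6.9e-11) and at 78.8% and 71.1% at P1. AMPA receptor genes carry a pair of exons, flip and flop, that are used in place of each other. An exon of that pair is normally included without its partner, so the early stop codon of a transcript with both does not describe the form measured. Without it, 4 exons of this class were called higher at E18. Its junctions were uneven in every library, with 1090 and 212 inclusion reads in the NesKO. In the E18 WT, 81 of the 539 exons of this class had a PSI of 50% or more. The others of these, such as the 67-nt exon of *Erc1* at 93.9%, were not checked for a similar limit and stay in the counts.

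Where skipping gives an early stop codon, 76 of 1124 exons differed at E18, 33 of them higher in the NesKO (43.4%; 95% Wilson interval, 32.9 to 54.6%) and 43 lower. At P1, 67 of 1144 differed, 37 higher (55.2%; 43.4 to 66.5%) and 30 lower. Over all cassette exons that differed, the shares were 63.9% and 72.5%, above these intervals. However, 832 of the 1124 in the E18 WT and 823 of the 1144 in the library labelled WT were above 90%. Such exons cannot gain 10 points, so these shares cannot show a difference in direction. The reads called 8 higher and 4 lower at E18 (1.07%, beside 2.77% of all cassette exons), and 15 higher and 5 lower at P1 (1.75%, beside 3.60%). The 91-nt exon of *Clk1* was included at 45.9% in the EmxKO, against 90% in the library labelled WT (exact adjusted p = 1.8e-20), with junction-read PSI of 62.2% (54.5 to 69.3%) against 95.1% (92.8 to 96.7%). At E18 it had 51.0% in the NesKO and 68.8% in the WT, but by junction reads 82.2% and 83.6%, and was not called. The exon of *Clk4* was at 33.8% against 64.1% at P1 (exact adjusted p = 8.5e-10) and at 58.3% against 80.1% at E18 (exact adjusted p = 0.076). The library labelled WT was the higher of the pair for both kinases at P1. A 67-nt exon of *Clk4* whose inclusion gives an early stop codon was at 24.9% against 12.5% at P1 and at 15.8% against 10.9% at E18, and was uneven. The exon of *Trpm4*, a cation channel, was included at 52.9% in the EmxKO, against 89.2% in the library labelled WT, where 4 reads skipped it (exact adjusted p = 0.035), and at 54.9% and 55.8% at E18.

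Other exons of this class were included more in a knockout. The 94-nt exon of *Prkaa1*, the catalytic subunit of AMP-activated kinase, was at 76.3% in the NesKO and 54.5% in the WT (exact adjusted p = 0.032), and at 82.4% and 81.5% at P1. The 71-nt exon of *Alg9*, a mannosyltransferase, was called at both stages, at 79.3% against 59.8% and 69.6% against 59.2% (exact adjusted p = 0.014 and 0.021). *Rnf32* had 99.9% in the EmxKO and 55.1% in the library labelled WT, with 0 and 8 skipping reads and a junction-read PSI of 100% (90 to 100%) against 71.4% (52.9 to 84.7%) (exact adjusted p = 0.013). In the other direction, the 170-nt exon of *Glb1*, the lysosomal beta-galactosidase, was at 50.8% against 85.4% at E18, where it was uneven, and the 67-nt exon of *Mccc2*, a subunit of a carboxylase, at 75.4% against 96.4% (exact adjusted p = 0.0075 and 0.011). By junction reads *Glb1* was at 67.2% (57.5 to 75.6%) against 88.4% (81.1 to 93.1%). At P1 the values were 82.4% and 83.7% for *Glb1* and 94.7% and 97.6% for *Mccc2*.

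Taking the exons of these classes by the form that carries the early stop codon, 75 of the 122 that differed at E18 had more of that form in the NesKO (61.5%; 95% Wilson interval, 52.6 to 69.6%). At P1 it was 64 of 107 (59.8%; 50.3 to 68.6%). Among called exons it was 9 of 19 (47.4%; 27.3 to 68.3%) and 14 of 29 (48.3%; 31.4 to 65.6%), so the intervals for called exons include equal numbers in both directions. Without *Gria2* it was 8 of 18 at E18 (44.4%). In the E18 WT, 832 of 1124 skipping-stop exons were above 90% and 329 of 539 inclusion-stop exons under 10%. Such exons can gain 10 points of the form with the early stop codon but cannot lose them. The shares above therefore cannot show a tilt toward that form.

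**Figure D4:**
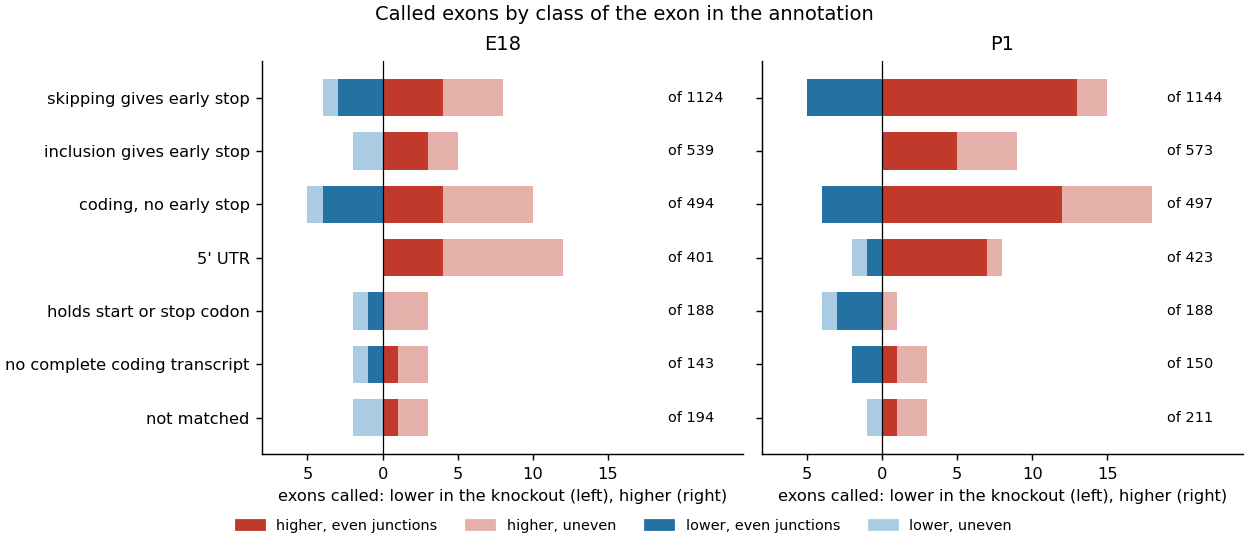
Number of frame-shifting exons called higher (to the right, red) or lower (to the left, blue) in the knockout, by class of the annotation (y axis), at E18 and at P1. Dark bars are exons whose 2 inclusion junctions were within 3 times of each other in both libraries, pale bars uneven exons, and the figure at the right of each row is the number of exons measured in the class. Calls at P1 in the class in which inclusion gives an early stop codon are all to the right (9 exons), and those of 5′ UTR exons at E18 too (12 exons, 4 of them even). Most calls over all cassette exons were also higher, 141 of 187 at E18 and 202 of 250 at P1. Frame-preserving 5′ UTR exons had 5 called higher and 3 lower at E18.

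Reads on the other junctions of the same gene show whether the gene itself was measured at another level. They were counted over all distinct junctions of the gene that do not touch the exon and scaled to RPM, with at least 20 in both libraries. Over all genes with a measured cassette exon, the log2 ratio of the NesKO to the WT had a median of -0.08 (quartiles, -0.29 and 0.10), and that of the EmxKO to the library labelled WT a median of -0.00 (-0.44 and 0.23). For the 9 exons of the inclusion-stop class called higher at P1, the ratio of the gene was below 0 in all 9, with a median of -0.61, and for the 5 at E18 in 4, with a median of -0.45, the value of *Gria2* itself (without it, -0.47, and 3 of 4 below 0). Ratios in this class at P1 were about as low where the PSI was lower. The genes of the 34 exons that differed by at least 10 points and were higher had a median of -0.44 (24 below 0), and those of the 6 that were lower a median of -0.45 (4 below 0). At E18 the medians were -0.15 over 30 and 0.08 over 14. *Sphkap* had a ratio of -1.03 at E18 and -0.51 at P1, *Ptch1* -0.80 and -0.17, and *Gtpbp10* -0.11 and -1.75. For skipping-stop exons called lower, the median was -0.93 at P1 (4 of 5 below 0), with *Clk1* at -1.05, *Clk4* at -0.93 and *Trpm4* at 0.53, but 0.03 at E18 (2 of 4 below 0). For skipping-stop exons called higher, the medians were 0.07 over 8 exons at E18 and 0.04 over 15 at P1. In both classes, exons that differed by less than 10 points had medians from -0.07 to 0.02.

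Low ratios also occurred outside these classes. All 10 coding exons without an early stop codon that were called higher at E18 lay in genes with ratios below 0 (both exons of *Atp2b4* counted), with a median of -0.27, and the 18 at P1 had a median of 0.05 with 8 below 0. The 5′ UTR exon of *Pbrm1*, a chromatin remodelling subunit, was at 92.6% against 70.8% at P1 with a gene ratio of -1.50, and *Zfp68* had a ratio of -2.03 at P1 with a PSI of 28.6% and 26.8%. The numbers of exons are small and each library is a single measurement, so these ratios are descriptions of the libraries.

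**Figure D5:**
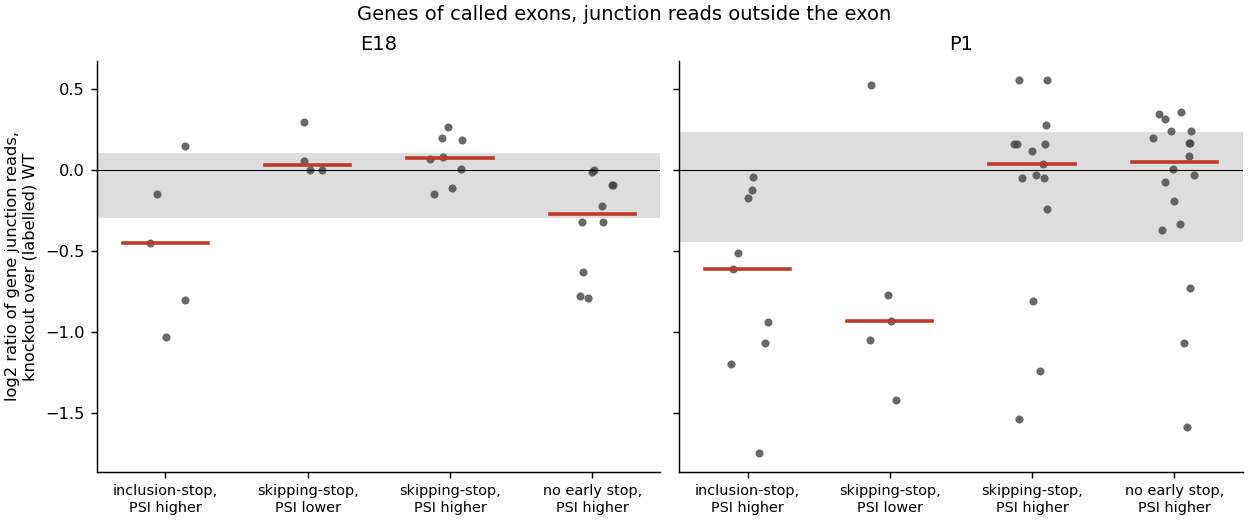
Log2 ratio of gene junction reads, knockout over the library compared (y axis), for the genes of called exons, by class and direction of the exon (x axis), at E18 and at P1. Each point is an exon, red lines are medians, and the grey band spans the quartiles over all genes with a measured cassette exon. At P1 the 9 genes in the leftmost group are all below 0 (median -0.61), and their lowest point is *Gtpbp10* at -1.75.

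Coding exons without an early stop codon can give the protein another C-terminus. Of 494 at E18, 47 differed, 32 higher in the NesKO and 15 lower, and 10 were called higher and 5 lower (3.04% called, beside 2.77% of all cassette exons). Of 497 at P1, 53 differed, 42 higher in the EmxKO and 11 lower, and 18 were called higher and 4 lower (4.43%, beside 3.60%). The frame with the exon of *Magi1* had 1268 codons and the frame without it 1471. In *Pitpnb* the frames had 271 and 272 codons and so differ in the C-terminus and hardly in length. In *Atp2b4*, a calcium pump of the plasma membrane, a 181-nt exon (chr1:135608219-135608399) was at 80.6% in the NesKO, 63.0% in the WT, 73.0% in the EmxKO and 47.3% in the library labelled WT, and changed the frame from 1205 to 1172 codons. A 191-nt exon of *Atp2b4* shares its end and most of its reads and is no independent case. In the related pump gene *Atp2b1*, the 154-nt exon was at 83.5% against 72.5% at E18 (exact adjusted p = 0.050, not called) and at 67.8% against 49.1% at P1 (exact adjusted p = 8.4e-19). The 41-nt exon of *Ap3s1*, a subunit of the AP-3 adaptor, was at 47.0% against 18.7% and 36.2% against 17.9%, with uneven junctions.

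Some coding exons were called at a single stage. The 37-nt exon of *Dnm1*, the dynamin of synaptic vesicle endocytosis, was at 87.3% in the NesKO and 63.6% in the WT (exact adjusted p = 1.7e-04), and at 54.9% and 55.9% at P1, and was uneven. The 71-nt exon of *Lemd1* was called lower at E18, at 20.2% against 63.2% (exact adjusted p = 0.0011), and had 46.5% and 57.1% at P1. The 97-nt exon of *Slc4a4*, a bicarbonate transporter, was called lower at P1, at 21.6% against 51.3% (exact adjusted p = 1.5e-04). At the other stage it had 23.3% and 28.2%.

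Of the 5′ UTR exons, 60 of 401 differed at E18, 39 higher in the NesKO and 21 lower, and 12 were called, all higher, of which 4 were even (2.99% called, beside 2.77% of all cassette exons). At P1, 37 of 423 differed, 23 higher in the EmxKO and 14 lower, and 8 were called higher, 7 of them even, and 2 lower (2.36%, beside 3.60%). Such an exon leaves the protein unchanged and can add upstream start codons, and 303 of the 450 (67.3%) hold at least 1 ATG. The *Gpr85* exon holds 5, in a 5′ UTR of 1215 nt. The 118-nt exon of *Ctnnd1*, which encodes p120-catenin, was at 73.6% against 56.8% at E18 and 72.7% against 55.8% at P1 (exact adjusted p = 3.5e-21 and 3.0e-07). The 38-nt exon of *Mvk*, mevalonate kinase, was at 77.5% against 53.1% and 65.9% against 51.2% (exact adjusted p = 5.5e-17 and 1.0e-04) and holds 0 ATG. Both had even junctions and a higher PSI in both knockouts. The 247-nt exon of *Gnb4*, a G-protein subunit, was at 47.6% in the NesKO and 4.7% in the WT, but 1 of its junctions had at most 1 read in any library.

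The 6 exons of the 3′ UTR had PSI values that differed by less than 10 points at both stages. An exon there leaves the coding sequence as it is but can put a junction behind the stop codon. Singled out after their values were seen, the 107-nt exon of *Hnrnpd* was at 2.7%, 3.0%, 1.9% and 2.9% in the NesKO, the E18 WT, the EmxKO and the library labelled WT, and that of *Srsf2* (104 nt) at 11.7%, 12.2%, 3.9% and 3.8%. The 136-nt exon of *Hnrnpa2b1*, singled out in the same way, was at 90.1% and 95.2% at E18 and at 94.2% and 85.9% at P1. Of 188 exons with a start or stop codon at E18, 3 were called higher and 2 lower (2.66%, beside 2.77% of all cassette exons). Of 188 at P1, 1 was called higher and 4 lower (2.66%, beside 3.60%). The 3 higher at E18 include a pair of overlapping exons of *Slc25a14*, which share reads. The 4 lower at P1 include such a pair of *Uspl1*.

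The genes were also grouped by lists, whose shares of called exons stand beside 2.77% of all cassette exons at E18 (2.09% higher, 0.682% lower) and 3.60% at P1 (2.91% higher, 0.692% lower). Among RNA-binding proteins and splicing regulators, 43 of 82 genes had 58 members. At E18, 57 were measured, 2 differed higher and 7 lower, and 1 was called in each direction (3.51%), with a median change of 0.00 points. At P1, of 57, 3 differed higher and 2 lower and all 5 were called (8.77%), with a median of 0.10. The called exons are those of *Rbm5* and *Srrm1* at E18 and of *Clk1*, *Clk4* (2 exons), *Rbm39* and *U2af1l4* at P1. *Rbm39*, a splicing coactivator, had a 73-nt exon whose inclusion gives an early stop codon, at 72.1% in the EmxKO and 57.2% in the library labelled WT, with uneven junctions. *Srrm1*, outside the rule for named exons, was at 22.2% in the NesKO and 33.1% in the WT. In NMD and exon junction factors, 3 of 16 genes had 4 members, and none differed by 10 points at either stage. The exons of *Rnps1*, singled out after their values were seen, were at 97.5%, 97.8%, 96.7% and 96.3% (181 nt) and at 51.7%, 56.1%, 51.1% and 44.9% (122 nt), in the order given above for *Hnrnpd*.

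Among genes of the synapse and of channels, 23 of 69 had 33 members. Of 31 at E18, 6 differed higher and 2 lower, 5 were called higher and 0 lower (16.1%), and the median change was 0.50 points. Of 30 at P1, 6 differed higher and 0 lower, 4 were called higher (13.3%), and the median was 1.00. A pair of overlapping exons that share reads is counted among the called at both stages. The called exons are those of *Magi1*, *Atp2b4* (2 overlapping exons), *Dnm1* and *Gria2* at E18, and of *Magi1*, *Atp2b4* (the same 2 exons) and *Atp2b1* at P1. Cytoskeleton and axon genes had 17 members in 15 of 40 genes, with 0 called at E18 and 1 at P1 (5.88%), the 139-nt 5′ UTR exon of *Erc1* at 31.6% against 21.5%. Zinc-finger genes with the symbols Zfp or Zscan, which leave out others such as *Wiz*, had 86 members in 64 genes. Of 66 at E18, 9 differed higher and 2 lower, with 1 called (1.52%), and of 85 at P1, 10 differed higher and 4 lower, with 2 called (2.35%). These are *Zfp68* at E18, at 47.8% against 28%, and *Zfp280c* (67.9% against 30.8%) and *Zfp655* (16.5% against 3.9%) at P1. Only the *Zfp280c* exon was even.

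Of 29 genes that the study names for splicing, 8 had 11 members, and 3 were called higher at E18 and 4 at P1, with 0 lower (27.3% and 36.4% called). The study names genes from splicing changes in the same mouse lines, found by arrays, RNA-seq and RT-PCR, and others from earlier work. Because these libraries contributed to it, the list is no independent evidence of a direction. The exons called were those of *Magi1*, *Pitpnb* and *Dnm1* at E18 and of *Magi1*, *Pitpnb*, *Atp2b1* and *Erc1* at P1. In *Dnm1* the study describes a mutually exclusive pair of exons, and the 37-nt exon is another exon of that gene. The 34-nt exons of *Ptbp1* and *Ptbp2*, whose skipping gives a stop codon 361 nt before the last junction, were included nearly throughout. That of *Ptbp1* was at 96.3%, 98.5%, 99.8% and 99.4% in the NesKO, the E18 WT, the EmxKO and the library labelled WT, and that of *Ptbp2* at 99.3%, 97.4%, 99.9% and 98.9%. In the same order, 7, 25, 1 and 26 reads skipped the *Ptbp2* exon (exact adjusted p = 0.068 at E18 and 0.0018 at P1). Its junctions were uneven, and it was not called. The *Ptbp1* exon was skipped by 24, 8, 2 and 11 reads. A 133-nt exon of *Agrn* stayed between 0.7% and 1.4%. The other members in this list are a 67-nt exon of *Erc1* at 90.8% to 94.8% and exons of *Ptbp1* of 31 and 196 nt at 98.9% or above. That *Erc1* exon is in the class whose inclusion gives an early stop codon.

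Whether an exon changed by a different amount at E18 and P1 was tested with a Wald chi-square test on the log odds ratios of the 2 stages, adjusted over 6474 cassette exons. It was past the threshold for 26 of 2979 members (0.873%, beside 1.45% of all cassette exons). *Armcx1*, an X-linked gene for a mitochondrial protein, had a 92-nt 5′ UTR exon (chrX:131252909-131253000) at 76.6% in the NesKO and 29.5% in the WT, but at 52.3% in the EmxKO and 94.7% in the library labelled WT. It was called at both stages, in opposite directions, and the junction reads of the gene outside the exon went the same way, with log2 ratios of 1.46 and -2.32. *Rbm5*, a splicing regulator, had a 74-nt exon whose skipping gives an early stop codon at 89.3% against 70.6% at E18 (exact adjusted p = 1.9e-08) and at 87.6% against 94.3% at P1, where it was not called. The *Clk1*, *Wiz* and *U2af1l4* exons differed between the stages as well, as did exons of *Sept5* and *Tmem14c* and, among exons that were not called, those of *Hnrnpa2b1* and *Rnps1* (122 nt).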

How the data were processed

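PolyA+ RNA of 4 mouse brain libraries, 1 per group, had been sequenced. The authors used SpliceTrap, which assigns reads to known exon trios. The deposited inclusion ratio is a fraction, estimated before and after its correction. The deposited junction reads are counts that were not normalized. The submitters' processing notes name mm9, CASAVA, TopHat and Cufflinks.

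The corrected ratio in percent was taken as PSI. For junction-read PSI, mean inclusion reads (2 junctions) were divided by mean inclusion plus skipping reads. Fisher's exact test used the rounded mean, and the Wald test added 0.5 to each count. Depth is given as reads on distinct junctions, taking the highest count where trios list a junction differently. Intervals allow for counting error alone, because reads copied by PCR are not separate molecules.

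Of 228333 trios, 209930 were matched to GENCODE mouse release 21 on GRCm38 by 3 lengths, those of the exon and its introns, within chromosome and strand. No coordinates were converted. Introns were not searched for motifs, because no genome sequence was used.

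Named exons are the 12 with the largest gains and the 8 with the largest losses called at both stages, by the smaller change, the 4 largest called changes of each class and stage, up to 6 called exons of each gene list, all members in genes the study names and, among exons called at 1 stage at least, the 6 smallest adjusted p between stages. Exons that fall outside are said to, or are said to be singled out after their values were seen. The members, lists and tests were chosen with earlier results of these data known. Alternatives covered read minimums, PSI measure, trio choice, exon filters, the change required, the test and the decay rule. Calculations used Python 3.11.15, numpy 2.4.6, pandas 2.3.3, scipy 1.17.1 and matplotlib 3.10.9 and were tested on simulated data.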

Additional observations from a re-analysis of the deposited data

Results flagged for a closer look

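The exons named in the report whose change differed between the stages by the Wald chi-square test are *Armcx1* (adjusted p = 1.9e-16), *Rbm5* (3.9e-07), *Clk1* (4.1e-07), *Tmem14c* (5.9e-06), *Wiz* (2.0e-04), *Hnrnpa2b1* (2.2e-04), *Sept5* (7.8e-04), *Rnps1* (0.0023) and *U2af1l4* (0.0025). The test compares 4 libraries that differ in stage, tissue, Cre line and protocol, and the counts of 1 library each. *Armcx1*, *Rbm5* and *Wiz* had differences of opposite sign at the 2 stages, by 47.1 and -42.4 points in *Armcx1*, 18.7 and -6.7 in *Rbm5* and -16.3 and 6.3 in *Wiz*. *Clk1* fell at P1 by 44.1 points, with a difference of -17.8 points at E18 that was -1.4 by junction reads. *Tmem14c* differed by -12.8 and 3.7 points, the 133-nt exon of *Sept5* by 14.7 and 8.3, and *U2af1l4* by -1.7 and 14.4. The 136-nt exon of *Hnrnpa2b1* differed by -5.1 and 8.3 points and the 122-nt exon of *Rnps1* by -4.4 and 6.2, and neither was called. The junctions of *Hnrnpa2b1*, *Tmem14c*, *Wiz*, *Sept5* and *U2af1l4* were uneven at 1 stage at least.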

How the results depend on the processing

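Of 106 values recomputed under an alternative, 90 stayed close to the reported value, 16 did not and 0 turned in direction. Close means within 1.5 times for a count and inside the reported Wilson interval for a share. For a median of gene ratios it means between the quartiles of the reported values, which is a wide range. Most of these values are counts, for which no turn could be recorded. Only the shares of exons higher in the knockout and the medians of gene ratios could turn. The exons that differed at E18 numbered 300, and 196 with a minimum of 50 junction reads, 557 with a minimum of 1 read, 73 at 20 points and 153 with even inclusion junctions only. Those called at E18 numbered 61, and 26 at 20 points, 26 with even junctions only and 39 when the lower inclusion junction was tested. At P1, 245 differed, and 447 with a minimum of 1 read and 47 at 20 points, while 75 were called, and 27 at 20 points. Exons that differed in the same direction at both stages numbered 58, and 113 with a minimum of 1 read, 15 at 20 points and 33 with even junctions only. By annotated transcript biotypes alone, 609 exons in place of 1184 were placed where skipping gives an early stop codon, and 397 in place of 596 where inclusion does. A rule of 10 points at 1 stage and under 2 at the other gave 93 exons that differ between the stages, against 26 by the Wald test. No paired analysis was possible because each group has 1 library and the labels give no replicate numbers, and no replicate could be left out for the same reason. Leaving out exons that share bases with another member, an alternative chosen after seeing the data, gave 35 called higher and 17 lower at E18, and 54 and 15 at P1. Leaving out *Gria2* was chosen in the same way.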
